A study of Mus musculus with 53 samples.

Results

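The comparison described here set tumours of the WGD+ form against tumours of the WGD- form of the mouse mammary tumour line TA3 Hauschka, in A/J mice given an isotype control antibody. Its members are 6 of the 53 libraries of the series, the 3 labelled WGD+ isotype and the 3 labelled WGD- isotype, chosen by their labels. WGD stands for whole genome doubling, in which a cell copies its chromosomes without dividing and goes on with extra full sets of them. Both forms were engineered from TA3 Hauschka, and the sources used here do not say how, or whether each form is 1 clone. The cells, mixed with Matrigel, were placed in the inguinal mammary gland of female A/J mice aged 6 weeks, which have an intact immune system. An isotype antibody has the frame of a therapeutic antibody but no target in the animal. Its groups are the controls for anti-PD-L1 and anti-CD8 antibody in the same experiment, and all of these treatments lasted 14 days. The antibody experiment has 17 libraries in 6 groups of 3, apart from WGD- tumours under anti-CD8 with 2.

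Several background facts help in reading the genes. Cells short of amino acids, or under other stresses that slow protein synthesis, raise the transcription factor ATF4, which with C/EBP partners switches on genes of amino acid synthesis, amino acid import and transfer RNA charging. This is called the integrated stress response. In epithelial cells claudins seal the tight junctions between neighbours, keratins form the filaments inside, integrins bind the matrix, and the membrane carries serine proteases and their inhibitors. CD8 T cells kill tumour cells with perforin and granzymes, and interferon-gamma from them raises MHC class I presentation and the PD-L1 gene Cd274.

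A level in this text is the deposited value, log2(CPM + 1), where CPM is a gene's reads per M (mega) of reads assigned to genes, and a difference is the WGD+ mean minus the WGD- mean of levels. Such a difference is smaller than the log2 ratio of CPM when a gene is low. The 6 libraries held 9.57 to 15.5 M assigned reads. Epithelial markers were present in every library, with Epcam at 7.32 to 8.27, Krt14 at 8.98 to 10.49 and Krt8 at 8.83 to 10.11, while Cldn3 and Cldn7 were near 0 in most. Skeletal muscle genes summed to 6350 CPM in WGD- replicate 2 and 2750 CPM in WGD+ replicate 3 against 98.6 to 197 CPM in the other 4 libraries. WGD- replicate 2 also held Acta1 at 10.30 and the liver gene Alb at 8.26. Adipocyte genes summed to 714 CPM in WGD- replicate 3 and 53.9 to 126 CPM elsewhere. Nothing in the labels ties each replicate to its own animal, and p-values here measure the spread between libraries only. That spread was estimated over all 6 groups of the antibody experiment, not from the isotype libraries alone. In bulk tumour RNA, fewer cells of a type and less RNA per cell cannot be told apart.

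The genotype label of 1 library, WGD+ isotype replicate 2, is in doubt, and differences are given with and without this library, below also called the doubted library. Genes called between the forms in vehicle tumours of NSG mice, which lack T, B and natural killer cells, served as a check, since they come from another experiment with no library in common. For those NSG libraries the form was read from the title, and the genotype field disagrees with it in the WGD+ vehicle group. In NSG tumours 394 of 13826 genes were called (2.85%), 124 higher (0.897%) and 270 lower (1.95%). Of these, 163 were past a difference of 1 and also tested in the antibody experiment, with 42 higher and 121 lower in WGD+. A form score for each library was the centred mean of the higher genes minus that of the lower genes. WGD- isotype libraries scored -0.77, -0.92 and -1.14, and WGD+ replicates 1 and 3 scored 0.89 and 0.96. The library labelled WGD+ isotype replicate 2 scored 0.16, above all 8 WGD- libraries of the experiment, which ran from -1.14 to -0.45, and below the other 8 WGD+ libraries, from 0.56 to 1.01.

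**Figure D1:**
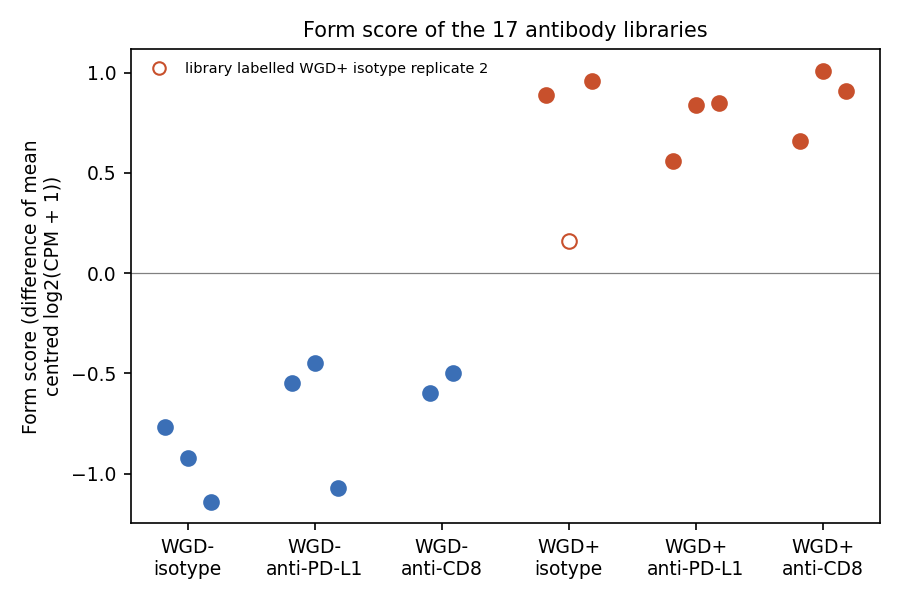
Form score of each of the 17 libraries of the antibody experiment (vertical axis, difference of mean centred log2(CPM + 1) between genes higher and lower in NSG WGD+ tumours) by group; each point is 1 library. The open point, the library labelled WGD+ isotype replicate 2, is at 0.16, between the WGD- libraries and the other WGD+ libraries.

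Single genes of that set placed this library differently. Slc7a11, the cystine importer that exchanges cystine for glutamate (chromosome 3, 49892526 to 50443614, minus strand), was at 4.73, 3.99 and 4.41 in WGD- replicates 1, 2 and 3 and at 6.85, 4.81 and 6.38 in the WGD+ replicates. Mfge8, a secreted protein that binds phosphatidylserine on dying cells, was at 7.22, 7.27 and 7.24 in WGD- and 9.59, 7.50 and 9.30 in WGD+. Lpar3, which encodes a lysophosphatidic acid receptor (chromosome 3, 146220963 to 146286186, plus strand), was at 3.58, 4.0 and 4.57 in WGD- and 0.78, 3.22 and 0.85 in WGD+. In all of these the library labelled replicate 2 lay near the WGD- libraries and far from the other WGD+ libraries. The non-coding RNA gene A530065N20Rik, at 0.93, 0.86 and 0.95 in WGD- and 4.31, 1.12 and 3.95 in WGD+, and Ap1m2, which sorts membrane proteins in epithelial cells, at 5.66, 5.83 and 5.77 and 3.12, 5.47 and 3.70, were of the same kind. Other genes went with its label. Krt23, an epithelial keratin, was at 2.07, 2.54 and 2.68 in WGD- and 4.01, 4.59 and 4.26 in WGD+, and Crabp2, which carries retinoic acid in cells, at 5.24, 6.03 and 6.18 and 3.88, 4.18 and 3.43. In the library labelled replicate 2, 94 of the 121 lower genes lay under all WGD- isotype libraries, against 99 and 111 in WGD+ replicates 1 and 3. Of the 42 higher genes, 23 lay over all WGD- isotype libraries, against 33 and 27. Over the 13840 genes tested it was most like a WGD- library under anti-CD8 (r = 0.979 across genes). Its mean r was 0.9598 with the other WGD+ isotype libraries and 0.9367 with the WGD- isotype libraries. WGD- isotype replicate 2 was likewise most like a library of the other form, WGD+ replicate 3 under anti-PD-L1 (r = 0.9765). The doubted library was also the lowest of the 6 in Cd274 and in the summed markers of T cells and macrophages.

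With all 6 libraries, 152 of 13840 genes were called by limma at an adjusted p under 0.05 (1.1% of the genes tested), 60 higher (0.434%) and 92 lower (0.665%) in WGD+ tumours. Without the library labelled replicate 2 there were 66 calls (0.477%), 22 higher (0.159%) and 44 lower (0.318%). In counts over lists below, rose and fell mean called higher and called lower. The 2 sets shared 45 genes, which are 29.6% of the first and 68.2% of the second. All 152 genes kept their direction without it, which was nearly fixed in advance, since the 2 fits share all other libraries. Every library mattered to the count. Calls numbered 41, 43 or 20 when WGD- replicate 1, 2 or 3 was dropped, and 56 or 85 when it was WGD+ replicate 1 or 3. Without the doubted library, leaving out a further library gave 48, 45 or 29 calls for WGD- replicates 1, 2 and 3, and 8 or 10 for WGD+ replicates 1 and 3. Of the 152 genes, 16 stayed called in each of the 6 fits with 1 library left out: Apoc1, Cdhr1, Cenpv, Cldn4, Gas5, Gpr137b, Gpr137b-ps, Il24, Pcsk6, Prkcd, Prl8a9, Psat1, Ptgs2, Stom, Tgm1 and Tmprss4. Of the 66, Apoc1, Lpar3 and A530065N20Rik stayed called in each of 5. The median difference over all genes was 0.002, and 0.004 without the doubted library. After quantile normalization the split with all 6 libraries became 80 higher and 69 lower, and without the doubted library 28 and 37.

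**Figure D2:**
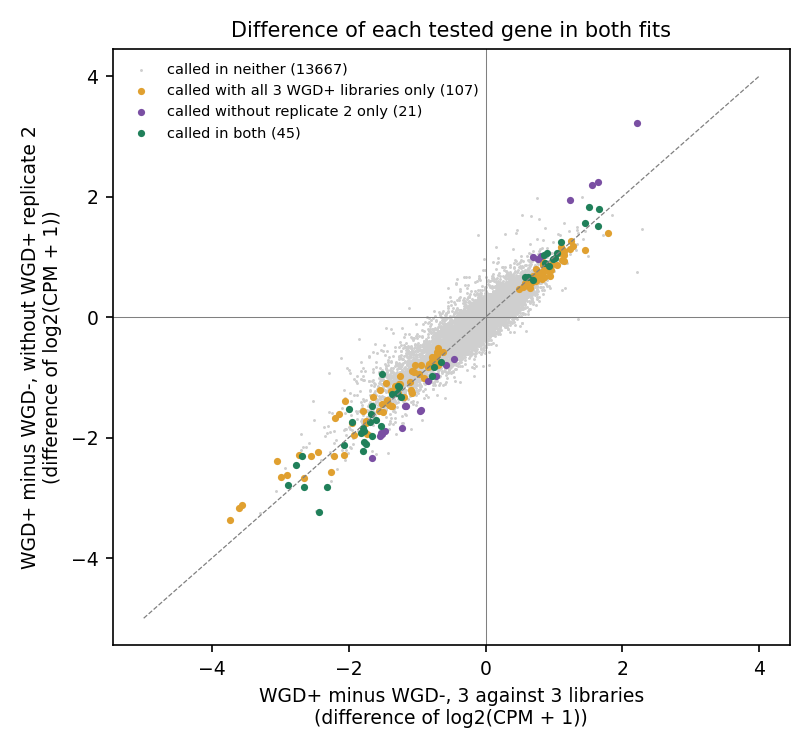
Difference between WGD+ and WGD- isotype tumours for each of 13840 tested genes with all 6 libraries (horizontal axis) and without the library labelled WGD+ isotype replicate 2 (vertical axis), both as differences of log2(CPM + 1); the dashed line marks equal values. The 45 genes called in both lie on both sides of 0, and all 152 genes called with 6 libraries keep their sign. The fits share every library except the one left out.

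Several genes for making serine, folate-bound carbon units, proline and asparagine rose in WGD+ isotype tumours. Psat1, which makes phosphoserine on the way to serine (chromosome 19, 15904678 to 15947337, minus strand), was at 6.85, 6.77 and 6.48 in WGD- and 7.48, 7.78 and 7.61 in WGD+ tumours. All WGD+ libraries were above all WGD- libraries. It rose by 0.92 (SE 0.13, adjusted p = 0.00329), and by 0.85 without the doubted library (adjusted p = 0.0109). The doubted library was the highest of the 6. Mthfd2, the mitochondrial folate enzyme that follows serine breakdown (chromosome 6, 83305691 to 83325908, minus strand), was at 7.43, 7.32 and 7.08 in WGD- and 8.33, 8.37 and 8.19 in WGD+. The groups did not overlap, and the rise was 1.02 (SE 0.17, adjusted p = 0.0151), or 0.98 without the doubted library (adjusted p = 0.0402). The glycine importer gene Slc6a9 was at 3.46, 3.24 and 3.52 in WGD- and 5.41, 4.79 and 5.01 in WGD+ and rose by 1.66 (adjusted p = 0.019; 1.80 and 0.0223 without the doubted library). Prodh, which breaks down proline, was at 3.96, 4.14 and 3.89 against 5.33, 4.78 and 5.17, a rise of 1.10 (adjusted p = 0.028; 1.26 and 0.0161 without it). For these last 2 the doubted library was the lowest of the WGD+ libraries but above each WGD- library. With 1 of the 6 libraries left out, Mthfd2 was called in 5 of 6 fits, Slc6a9 in 2 and Prodh in 1.

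Several further genes of this metabolism rose with all 6 libraries and lost the call without the doubted library, with nearly the same differences. Asns, which makes asparagine, was at 8.27, 8.15 and 7.98 in WGD- and 8.95, 8.92 and 8.69 in WGD+ (0.72, adjusted p = 0.0396; 0.69, adjusted p = 0.106 without it). Pck2, the mitochondrial enzyme that makes phosphoenolpyruvate, differed by 0.86 and 0.78 (adjusted p = 0.0432 and 0.125). The proline synthesis genes Aldh18a1 and Pycr1 differed by 0.82 and 1.11 (adjusted p = 0.0335 and 0.0335; 0.101 and 0.0552 without it). Neutral amino acid carrier Slc1a4, alanine transaminase Gpt2 and folate enzyme Aldh1l2 differed by 1.15, 0.97 and 1.46, also called with all 6 libraries and not without (adjusted p = 0.0678, 0.101 and 0.135). Asns was called in none of the 6 fits with 1 library left out, and Pck2 in 1. Slc7a11 went the other way. It differed by 1.64 with all 6 libraries (SE 0.41, adjusted p = 0.0699) and rose by 2.24 without the doubted library (SE 0.29, adjusted p = 0.00266). Serine synthesis gene Phgdh was at 8.89, 8.83 and 8.41 and 9.55, 8.98 and 9.78, a difference of 0.73 that was not called (adjusted p = 0.16, and 0.127 without it).

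Counted over whole lists, 11 of the 33 tested genes of serine, glycine, proline and one-carbon metabolism were called higher with all 6 libraries, against 0.434% of all genes tested. None was called lower, though 4 had negative differences, and the median difference was 0.49 against 0.002 over all genes. Without the doubted library 5 were called higher, against 0.159% of all genes, and none lower, with 6 negative differences and a median of 0.50. Over the alternative settings and left-out libraries, 1 to 12 members of the serine, glycine, proline and one-carbon metabolism list rose with all 6 libraries as the base, and 0 to 7 without the doubted one. This list was drawn up after values had been seen. Of 18 genes of the integrated stress response and amino acid supply, 3 were called higher (Psat1, Mthfd2 and Asns), against 0.434% of all genes. None was called lower, though 3 had negative differences, and the median was 0.56. Without the doubted library 2 were called higher (Psat1 and Mthfd2), against 0.159% of all genes, with a median of 0.61. The lists share 7 genes. Atf4 itself was at 9.21, 8.80 and 9.30 in WGD- and 9.51, 9.55 and 9.41 in WGD+, a difference of 0.39 that was not called (adjusted p = 0.25; 0.454 without the doubted library). Nor were the stress response genes Ddit3 (0.57, adjusted p = 0.163, or 0.62 and 0.254 without it) and Trib3 (0.46, adjusted p = 0.317, or 0.19 and 0.756 without it). Atf5, a related factor, rose by 1.24 with all 6 libraries (adjusted p = 0.029) and missed the threshold without the doubted one (1.26, adjusted p = 0.0585). Among 16 genes of the unfolded protein response of the endoplasmic reticulum none was called in either fit, and the medians were -0.12 and -0.17.

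Some enzymes of transfer RNA charging rose too. Lars, which charges leucine (chromosome 18), was at 6.66, 6.54 and 6.45 in WGD- and 7.65, 7.60 and 7.38 in WGD+ and rose by 0.99 (SE 0.15, adjusted p = 0.00733), or 0.96 without the doubted library (adjusted p = 0.0223). The enzymes for alanine, asparagine and threonine, Aars, Nars and Tars, rose by 0.74, 0.73 and 0.56 with all 6 libraries (adjusted p = 0.0411, 0.0357 and 0.049) and were not called without the doubted one (adjusted p = 0.0694, 0.114 and 0.125). So 4 of the 20 tested cytosolic charging enzymes were called higher, against 0.434% of all genes, and none lower, with 2 negative differences and a median of 0.43. Without the doubted library 1 rose, against 0.159% of all genes, with a median of 0.47. This list too was drawn up after values had been seen. With 1 of the 6 libraries left out, Lars was called in 5 of 6 fits and Aars, Nars and Tars in none. Xpot, which exports transfer RNA from the nucleus and was chosen after its values were seen, rose by 0.83 (adjusted p = 0.0213; 0.0544 without it).

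**Figure D3:**
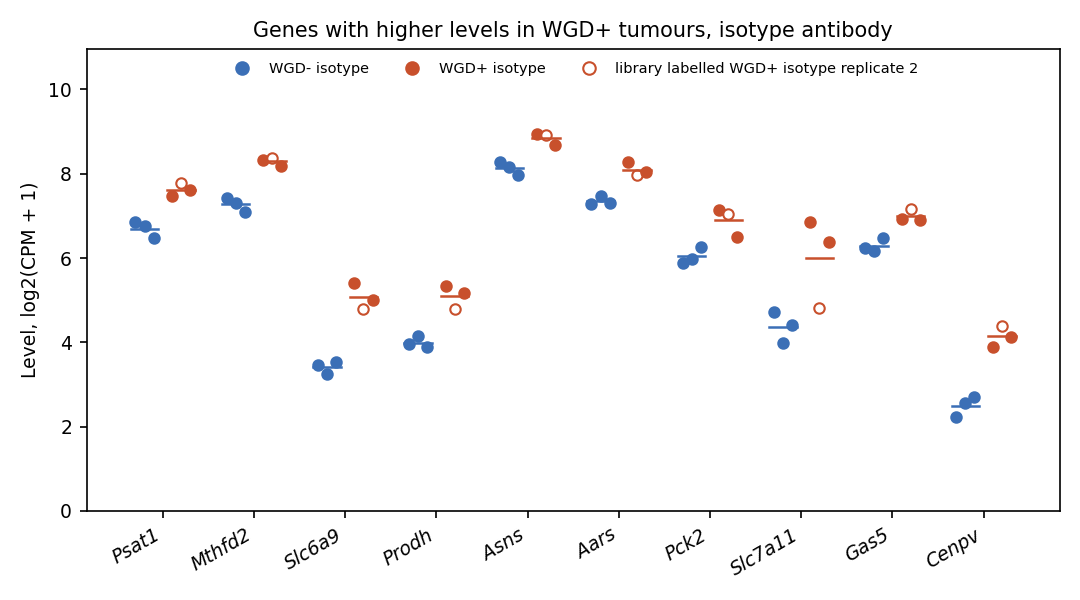
Levels (vertical axis, log2(CPM + 1)) of 10 genes in the 6 isotype libraries; points are libraries, short lines the means of 3, and the open point is the library labelled WGD+ isotype replicate 2. WGD+ libraries lie above WGD- libraries for each gene shown, and the open point falls near the WGD- libraries only for Slc7a11.

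Because these genes rose together, their promoters were read for the composite element bound by ATF4 with a C/EBP partner, written here as TGATGNAAN on either strand. In the 150 bases before the RefSeq gene start (GRCm38.p6), 5 of 44 genes called higher with all 6 libraries and found among the RefSeq promoters held a match (11.4%): Aars, Asns, Pck2, Pycr1 and Tars. The share was 1.54% of 10812 tested genes, and 2.82% of the 71 genes called lower. Without the doubted library 2 of 17 genes called higher held one (11.8%), Slc7a11 and the netrin gene Ntng1. None of the 5 genes with a match named above was called in that fit, so the 2 shares rest on different genes. Psat1 and Mthfd2 held none in this window. Below are 4 of these promoters, each 5′ to 3′ on the strand of its gene, with the matches in capitals; Slc7a11 holds 2 that face each other. A match describes the letters only, and binding was not measured.
Slc7a11, chr3:50443614-50443763, minus strand: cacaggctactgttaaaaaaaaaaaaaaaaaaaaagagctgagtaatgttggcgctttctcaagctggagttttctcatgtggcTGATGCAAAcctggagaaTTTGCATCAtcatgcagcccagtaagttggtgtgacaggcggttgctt
Asns, chr6:7693210-7693359, minus strand: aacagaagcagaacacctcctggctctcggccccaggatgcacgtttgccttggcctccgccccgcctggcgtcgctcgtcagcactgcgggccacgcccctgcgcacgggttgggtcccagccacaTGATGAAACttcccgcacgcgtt
Aars, chr8:111033692-111033841, plus strand: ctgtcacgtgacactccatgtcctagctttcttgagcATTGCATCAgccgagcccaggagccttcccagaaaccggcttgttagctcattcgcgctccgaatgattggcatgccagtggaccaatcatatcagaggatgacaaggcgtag
Pck2, chr14:55540116-55540265, plus strand: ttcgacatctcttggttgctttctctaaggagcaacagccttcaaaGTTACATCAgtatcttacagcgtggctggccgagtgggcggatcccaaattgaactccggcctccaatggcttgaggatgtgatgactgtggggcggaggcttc

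Outside amino acid supply, the genes that rose in both fits were of mixed kinds. Cenpv, a protein of centromeric chromatin (chromosome 11, 62524946 to 62539261, minus strand), was at 2.23, 2.55 and 2.70 in WGD- and 3.90, 4.39 and 4.13 in WGD+. All WGD+ libraries, the doubted one highest, were above all WGD- libraries, and the rise was 1.65 (SE 0.20, adjusted p = 0.002; 1.52 and 0.00395 without the doubted library). Pcsk6, a protease that activates growth factor precursors, was at 4.36, 4.17 and 4.06 and 5.91, 5.45 and 5.61 and rose by 1.46 (adjusted p = 0.00297; 1.57 and 0.00395 without it). Gas5, a non-coding host gene of small nucleolar RNAs, was at 6.24, 6.16 and 6.48 and 6.92, 7.16 and 6.91 and rose by 0.70 (adjusted p = 0.00969; 0.62 and 0.0259). Snhg12, another such host gene, rose by 1.04 and 1.06. The transcription factor gene Osr1 was at 4.12, 3.80 and 3.39 and 5.37, 4.63 and 5.83 and rose by 1.51 and 1.83, and Pde2a, which breaks down cyclic nucleotides, rose by 0.86 and 1.04 (adjusted p = 0.0335 and 0.015). The growth factor gene Bmp7 had the largest rise with all 6 libraries among the called genes named by rule, from 3.07, 2.89 and 2.90 to 5.02, 5.56 and 3.67, and was not called without the doubted library, the highest of the 6 for this gene (1.80, adjusted p = 0.0396; 1.39, adjusted p = 0.125).

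Some genes that fell encode proteins of the epithelial surface, though the share of such genes among all calls was not counted. Tgm1, Tmprss4, Cdhr1 and Stom were named after their values were seen. Cldn4, a tight junction claudin (chromosome 5, 134945119 to 134946934, minus strand), was at 5.35, 5.55 and 5.76 in WGD- and 2.80, 2.11 and 3.70 in WGD+. The groups did not overlap, and it fell by 2.69 (SE 0.33, adjusted p = 0.00204), or by 2.31 without the doubted library (adjusted p = 0.00266). Tgm1, which cross-links proteins under the membrane of keratinocytes, was at 4.38, 4.55 and 5.21 and 2.95, 2.34 and 2.99 and fell by 1.95 and 1.74 (adjusted p = 0.00329 and 0.0109). The membrane serine protease gene Tmprss4, at 3.03, 3.67 and 3.69 and 1.59, 1.92 and 1.54, fell by 1.78 and 1.90 (adjusted p = 0.00204 and 0.00266). Spint1, an inhibitor of such proteases, was at 3.83, 3.70 and 3.74 in WGD- and 1.93, 2.82 and 1.14 in WGD+, with the doubted library between the groups, and fell by 1.79 and by 2.22 without it (adjusted p = 0.0267 and 0.00266). Of other kinds, the photoreceptor cadherin gene Cdhr1 was at 5.50, 5.74 and 5.47 and 3.59, 3.96 and 3.69. Stom, a membrane scaffold protein, was at 6.43, 6.47 and 6.61 and 5.37, 4.94 and 5.35. Cdhr1 and Stom fell by 1.82 and 1.28 (1.93 and 1.14 without the doubted library).

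For some genes that fell in both fits the doubted library was the highest of the WGD+ libraries. Lpar3 fell by 2.43 (SE 0.48, adjusted p = 0.0335) and by 3.23 without it (SE 0.29, adjusted p = 0.000208), and it was called in 1 of 6 fits with a library left out against 5 of 5 once the doubted library was gone. Itga7, the alpha chain of a laminin receptor, was at 7.47, 7.55 and 7.79 in WGD- and 4.30, 6.27 and 5.29 in WGD+ and fell by 2.32 and 2.81 (adjusted p = 0.0335 and 0.00676). The lactate exporter gene Slc16a3 was at 7.10, 7.15 and 7.35 and 4.67, 6.19 and 5.51 and fell by 1.74 and 2.11 (adjusted p = 0.0245 and 0.00266). Only without the doubted library was Ap1m2 called, lower by 2.35 (adjusted p = 0.00723). Only then were Mfge8 and A530065N20Rik called, higher by 2.20 and 3.22 (adjusted p = 0.00266 and 0.00179). Each of these genes had the same direction with all 6 libraries. The transcription factor gene Sp6, of tooth and skin epithelium, was low in all WGD+ libraries, at 1.62, 2.14 and 2.01 against 3.33, 3.77 and 3.47 in WGD-, and fell by 1.60 and 1.71. Of the 163 genes of the form set, 155 had the NSG direction here with all 6 libraries and 154 without the doubted one. Over the 13326 genes tested in both experiments the shares were 61.1% and 60.0%. Among the 163 genes 24 were called with all 6 libraries (14.7%, against 1.1% of all genes) and 30 without the doubted one (18.4%, against 0.477%).

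Among 16 tested keratin and epithelial genes, 2 were called lower with all 6 libraries, Cldn4 and Krt18, against 0.665% of all genes. None was called higher, though 4 had positive differences, and the median was -0.97. Without the doubted library only Cldn4 was called lower, against 0.318% of all genes, with a median of -0.69. Krt18, a keratin of simple epithelium, was at 8.75, 9.04 and 9.73 in WGD- and 8.27, 7.39 and 8.13 in WGD+ (-1.24, adjusted p = 0.0377; -0.97, adjusted p = 0.116 without it). Krt23 went in the opposite direction but was not called (difference 1.86, adjusted p = 0.0688; 1.70, adjusted p = 0.195).

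Several lower genes encode secreted or signalling proteins. Apoc1, an apolipoprotein also made by macrophages (chromosome 7, 19689481 to 19692660, minus strand), was at 2.75, 3.57 and 2.79 in WGD- and 0.28, 0.71 and 0.14 in WGD+. No WGD+ library reached the WGD- range, and it fell by 2.66 (SE 0.27, adjusted p = 0.000364) and by 2.83 without the doubted library (adjusted p = 0.000414). It was called with any single library left out in both fits. Ptgs2, the inducible cyclooxygenase that starts prostaglandin synthesis (chromosome 1, 150100031 to 150108227, plus strand), was at 4.57, 4.73 and 5.53 and 2.91, 2.99 and 2.71 and fell by 2.07 and 2.13 (adjusted p = 0.00204 and 0.00409). Il24, a cytokine that acts on epithelia, was at 5.09, 4.97 and 5.36 and 3.30, 1.74 and 2.08 and fell by 2.77 and 2.45 (adjusted p = 0.00369 and 0.015). The kinase gene Prkcd fell by 1.24 and 1.33, and the galectin gene Lgals3, which binds sugar chains, by 1.36 and 1.27. Gpr137b and its copy Gpr137b-ps, whose reads may be shared, fell by 1.68 and 1.67 (1.61 and 1.47 without the doubted library). Summed macrophage markers were also lower in WGD+ libraries, at 295 to 1220 CPM, or 954 to 1220 CPM without the doubted library, against 1290 to 3150 CPM, and their part in the fall of Apoc1, Ptgs2 and Lgals3 was not tested.

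Placental prolactin genes on chromosome 13 were also lower, a group named after its values were seen. Of 22 in the deposited values, 6 were tested. With all 6 libraries 5 of these were called lower, against 0.665% of all genes, and 2 without the doubted one, against 0.318%. A gene near 0 in WGD+ tumours could pass the filter through WGD- libraries alone. The counts are therefore set in part by the filter and show nothing about the family as a whole. Prl8a9 was at 2.46, 3.80 and 2.97 in WGD- and 0.19, 0.00 and 0.38 in WGD+, with no overlap, and fell by 2.89 and 2.79 (adjusted p = 0.002 and 0.00433). Prl2c5 fell by 2.0 and 1.52 (adjusted p = 0.029 and 0.0413). The Prl2c genes are near copies of each other, so how reads were split between them is uncertain.

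**Figure D4:**
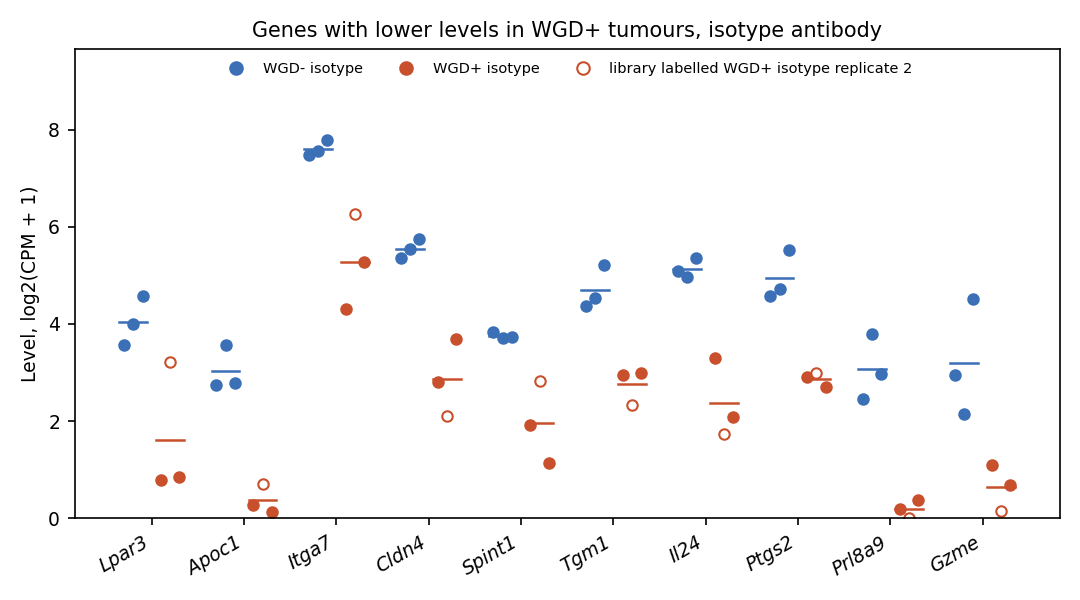
Levels (vertical axis, log2(CPM + 1)) of 10 genes in the 6 isotype libraries, drawn as in the plot of amino acid genes. WGD+ libraries lie below WGD- libraries for each gene, and for Lpar3 the open point, the library labelled WGD+ isotype replicate 2, is at 3.22 against 0.78 and 0.85 in the other WGD+ libraries.

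A few genes of killer lymphocytes and activated myeloid cells fell in WGD+ isotype tumours with all 6 libraries, and those named in this paragraph were not called without the doubted library. The neighbouring granzyme genes Gzmc, Gzmd, Gzme, Gzmf and Gzmg on chromosome 14, proteases of killer lymphocyte granules, fell with all 6 libraries. Gzmd was at 4.0, 3.43 and 6.40 in WGD- and 2.31, 0.15 and 0.68 in WGD+, a fall of 3.56 (SE 0.67, adjusted p = 0.0303), and -3.11 without the doubted library (adjusted p = 0.0896). WGD- replicate 3 was the highest library and the doubted library the lowest, and the groups did not overlap. Over the granzyme list, drawn up after values were seen, 5 of 8 tested genes fell, against 0.665% of all genes, and 0 without the doubted library, against 0.318%, with medians of -2.99 and -2.44. Gzmb, the main granzyme of CD8 T cells, was at 3.29, 4.58 and 4.71 in WGD- and 2.31, 0.40 and 1.08 in WGD+ and was not called (-2.93, adjusted p = 0.134; -2.50, adjusted p = 0.325 without the doubted library). These genes resemble each other in sequence, so reads may be shared. Nos2, the inducible nitric oxide synthase of activated myeloid cells, was at 5.35, 6.43 and 6.75 and 3.69, 2.51 and 3.35 (-3.00, adjusted p = 0.0303; -2.66, adjusted p = 0.0891 without the doubted library). Acod1, which makes itaconate in such cells, was at 4.85, 5.11 and 5.45 and 3.19, 1.65 and 1.86 (-2.91, adjusted p = 0.0357; -2.61, adjusted p = 0.116). The chemokine genes Ccl3 and Cxcl2 fell by 2.20 and 1.96 (adjusted p = 0.0335 and 0.037; 0.0978 and 0.116 without it).

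The antibody targets of the experiment were not called here. Cd8a was at 1.53, 3.21 and 3.10 in WGD- and 1.10, 0.51 and 0.38 in WGD+, a difference of -1.95 (SE 0.77, adjusted p = 0.202), and -1.87 without the doubted library (adjusted p = 0.389). Each WGD+ library was under each WGD- library. Cd274 was at 4.70, 5.24 and 5.66 and 4.28, 2.14 and 3.53, a difference of -1.88 (adjusted p = 0.199), and -1.30 without the doubted library (adjusted p = 0.487). The doubted library was the lowest for Cd274, and the groups did not overlap with or without it.

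Whole marker lists were read the same way. Summed T cell markers, of which 15 were tested, were at 135 to 180 CPM in WGD- and 63.3 to 141 CPM in WGD+ libraries, or 133 to 141 CPM without the doubted library, with a median difference of -1.21, and -1.14 without the doubted library. Over the 3 markers of T cells with a mean level of at least 3 the medians were 0.16 and 0.03, of the opposite sign. Groups did not overlap for 11 of the 15, against 24.9% of all genes tested, and for 13 without the doubted library, against 37.1%. Summed markers of cytotoxic lymphocytes (14 tested) were at 75.0 to 137 CPM in WGD- and 42.9 to 58.1 CPM in WGD+ libraries, or 43.6 to 58.1 CPM without the doubted library, with medians of -1.36 and -1.12. Summed macrophage markers (19 tested) were at 1290 to 3150 CPM in WGD- and 295 to 1220 CPM in WGD+ libraries, or 954 to 1220 CPM without the doubted library, with medians of -1.39 and -0.96. None of these genes was called in either fit. The perforin gene Prf1, at 2.18, 3.15 and 3.72 in WGD- and 2.17, 0.00 and 0.68 in WGD+, had an adjusted p of 0.0982 (0.273 without the doubted library), and the macrophage arginase gene Arg1, at 6.20, 5.90 and 7.79 and 3.84, 2.95 and 5.01, of 0.051 (0.148 without it). Of 25 interferon-gamma response genes 1 was called lower with all 6 libraries, Nos2, against 0.665% of all genes. Without the doubted library 0 were called lower, against 0.318% of all genes. Medians of this list were -1.39 and -0.60. MHC class I presentation genes (13 tested, 0 called) had medians of -1.09 and -0.48, so the difference was over 1.5 times smaller without the library labelled WGD+ isotype replicate 2. B2m, the shared light chain of class I, was at 10.17, 10.81 and 10.83 in WGD- and 9.94, 8.15 and 9.58 in WGD+ (-1.38, adjusted p = 0.172; -0.85, adjusted p = 0.449). The B cell gene Ms4a1 was at 0 in all 6 libraries. Stromal lists had 0 called: fibroblast and collagen genes had medians of -0.67 and -0.40, and endothelial genes -0.81 and -0.47. Pericyte and smooth muscle genes had medians of -0.25 with all 6 libraries and 0.14 without the doubted one, of opposite sign. The part of cell content in any other result was not tested.

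**Figure D5:**
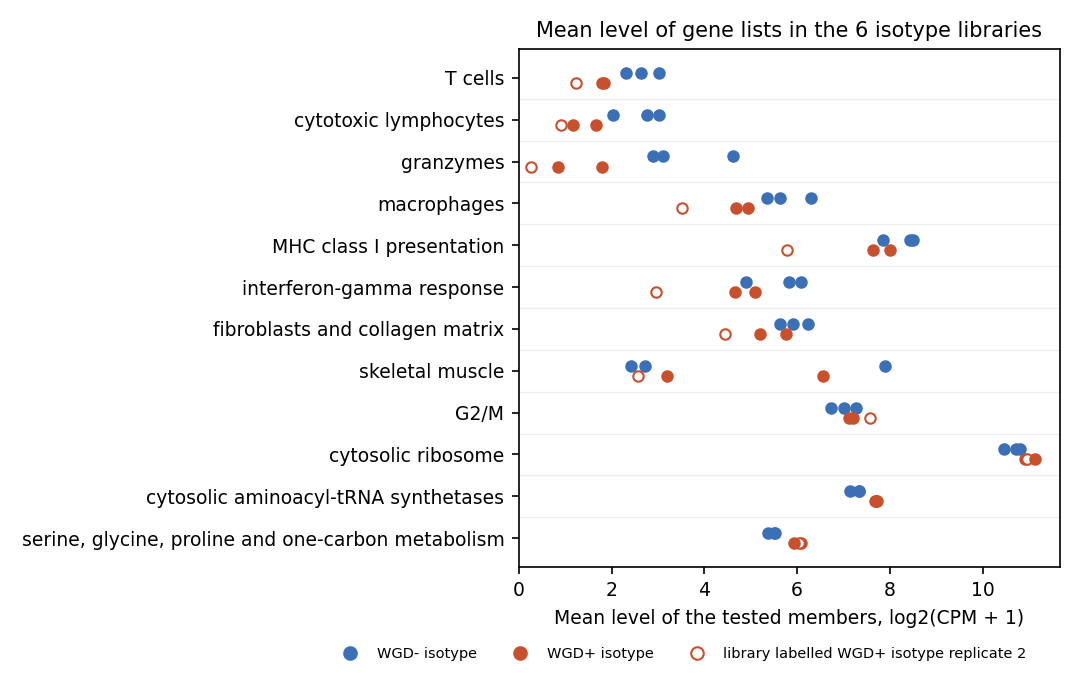
Mean level (horizontal axis, log2(CPM + 1)) of the tested members of 12 gene lists in the 6 isotype libraries, 1 point a library, with the library labelled WGD+ isotype replicate 2 open. That library is the lowest of the 6 in the lymphocyte, macrophage and MHC class I lists, and lies with the other WGD+ libraries in the lists of transfer RNA charging and serine metabolism.

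Cell division genes showed small positive differences with no call. The 20 G2/M genes, 21 genes of G1/S and replication and 21 of the spindle checkpoint had medians of 0.30, 0.39 and 0.27, and 0.17, 0.24 and 0.17 without the doubted library. Mki67, the common proliferation marker, was at 8.58, 8.35 and 8.06 in WGD- and 8.75, 8.86 and 8.58 in WGD+, a difference of 0.40 (adjusted p = 0.204; 0.33, adjusted p = 0.435 without the doubted library). For Mki67 WGD- replicate 1 and WGD+ replicate 3 were level, and the other libraries did not overlap. Of the 20 G2/M genes 0 had groups that did not overlap, against 24.9% of all genes tested. Without the doubted library 3 did, against 37.1%. The counts were 7 and 8 of 21 for G1/S and replication, and 4 and 6 of 21 for the spindle checkpoint. Of 20 DNA repair genes all 20 had positive differences in both fits, with medians of 0.42 and 0.35. Over all 13840 genes tested 6945 differences were positive, and 6986 without the doubted library. In the list 1 gene was called higher, with all 6 libraries only, against 0.434% of all genes (0.159% without the doubted library). That was Brca2, which acts in the repair of broken DNA, at 4.09, 3.87 and 3.83 in WGD- and 4.76, 4.81 and 4.41 in WGD+ (0.73, adjusted p = 0.0396; 0.65, adjusted p = 0.113 without it). Of 22 p53 target genes none was called, with medians of 0.05 and 0.14. Cytosolic ribosome genes (16 in the list, 0 called) had medians of 0.35 and 0.38. Cholesterol synthesis genes depended on the doubted library. Of 17, 0 were called with it, where 0.665% of all genes fell, and 2 fell without it, against 0.318% of all genes. These were Dhcr7, by 0.97, and Fdft1, by 0.69 (adjusted p = 0.018 and 0.0413, or 0.0849 and 0.165 with all 6 libraries). The median of the list went from -0.25 to -0.64.

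Whether the difference between forms under isotype antibody differed from that under the other antibodies was tested as an interaction. No gene was called by limma in any of these tests, or by voom on recovered reads. At an unadjusted p under 0.05 there were 232 genes for isotype against anti-PD-L1 and 217 without the doubted library, and 2304 and 1322 for isotype against anti-CD8. These comparisons share no library with the isotype comparison, though all were scaled together. Of the 152 isotype calls, 151 had the same direction under anti-PD-L1, against 77.5% of all genes, and 131 under anti-CD8, against 51.0%. Without the doubted library 66 of 66 had it under anti-PD-L1 and 65 of 66 under anti-CD8, against 76.2% and 60.6% of all genes. Across all genes, differences under isotype and anti-PD-L1 had an r of 0.760, and 0.764 without the doubted library. For anti-CD8 the r was 0.042 with the doubted library and 0.302 without it. Genes are not independent replicates, so these values only describe the libraries.

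Single genes show the range. Mthfd2 had differences of 1.05 under anti-PD-L1 and 1.16 under anti-CD8, close to 1.02 under isotype antibody. Slc7a11 had 2.60 and 2.54, near the 2.24 found without the doubted library. Psat1 had 0.96 under anti-PD-L1 and 0.14 under anti-CD8, where the 2 WGD- libraries were at 7.40 and 7.54, above the WGD- isotype libraries. Gzmd had -1.60 and 0.02, and Cd274 -0.86 and -0.01. Apoc1 had -0.53 and -0.73, and its WGD- levels of 0.61 to 1.06 under both antibodies were under those of WGD- isotype tumours. No gene named here was called as a difference between treatments.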

How the data were processed

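RNA was measured in tumours by sequencing of stranded mRNA libraries, per the labels' protocols. The submitters' processing notes name STAR 2.5.1b, edgeR and the mm10 build. The counting tool, its strand setting and the annotation were not given in the sources used here, so a gene and its antisense partner may share reads. The authors deposited log2 values per gene and library, which read as log2(CPM + 1) with TMM scaling and gave whole reads within 0.1 for 100% of the values tested. The antibody table held 20185 genes, of which 98.5% matched GENCODE M21 symbols, and 25 symbols turned into dates were left out.

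Genes above 1 CPM in at least 3 of 17 libraries (13840) were fitted with limma 3.58.1 in R 4.3.3 on the deposited values, with 1 mean per group, a mean-variance trend and robust empirical Bayes. All 6 groups shared 1 estimate of the spread (16 libraries without the doubted one). P-values were adjusted by the Benjamini-Hochberg method over all genes tested, two-sided, and a call is an adjusted p under 0.05. The script was tested on simulated data. Groups came from the sample titles.

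The comparison, its libraries and the gene lists were chosen with earlier results of these data known. Named genes were the antibody targets, up to 8 called genes each way with the largest difference (up to 10 without the doubted library), genes of the form set, and up to 4 called members of each list, or 2 where none was called. Other genes were chosen after their values were seen: A530065N20Rik, Aars, Acta1, Aldh18a1, Atf4, Cdhr1, Ddit3, Epcam, Gas5, Gpr137b, Gpr137b-ps, Gpt2, Gzmb, Gzme, Krt14, Krt8, Lars, Lgals3, Mki67, Nars, Ntng1, Pck2, Phgdh, Prkcd, Prl2c5, Pycr1, Slc1a4, Stom, Tars, Tgm1, Tmprss4, Trib3 and Xpot. Promoters are from RefSeq on GRCm38.p6, with coordinates of genes from GENCODE M21 on mm10. Alternatives were a filter of none or of a mean level of at least 3, log2(CPM + 2), quantile normalization, voom on recovered reads, the compared groups alone, a replicate block, no trend, and each library left out.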

Additional observations from a re-analysis of the deposited data

How the results depend on the processing

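The count of 152 calls with all 6 libraries was 89 with no filter, 52 with only the groups compared in the fit, 50 by voom on recovered reads and 63 with the replicate block, and 20 to 85 with 1 library left out. Without the library labelled WGD+ isotype replicate 2, the 66 calls became 43, 155, 34 and 40 under the same settings, and 8 to 48 with a further library left out. The other alternatives kept both counts within 1.5 times. Why the counts differ was not tested. Same-numbered libraries of the forms did not deviate together (r = -0.056, -0.212 and -0.073), so the replicate numbers were not taken as pairs. No gene called in either fit, and no other gene named with a difference, changed sign under any alternative. The interactions had 0 calls under each alternative run. At 9.57 to 15.5 M reads a library (M for mega), counting error is largest for genes near 1 CPM, and 3 libraries a group set the precision of the rest.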
